A study of Homo sapiens with 20 samples.

Results

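The 10 clock output genes NR1D1, NR1D2, RORA, BHLHE40, BHLHE41, CIART, DBP, TEF, HLF and NFIL3 were examined for binding of BMAL1 and HIF2α in A498 cells, an established human clear cell renal carcinoma line. The genes were taken by name, with earlier results of these data known. Every peak that overlapped a gene body or the 10 kb to either side (GRCh37) was counted. This gave 30 of 12171 peaks over 4 lists. The list of BMAL1 peaks held 10 of 2350 in cells expressing the control shRNA (shCNT) and 8 of 4261 in cells expressing an shRNA against BMAL1 (shBMAL1), and the list of HIF2α peaks held 5 of 2361 with shCNT and 7 of 3199 with shBMAL1. The windows also hold other genes, among them NKIRAS1 beside NR1D2 and the antisense gene BHLHE40-AS1, so each peak is given with its nearest start.

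A498 cells were infected with a lentivirus carrying a scramble shRNA or the BMAL1 shRNA and selected with puromycin, which both groups received, and CUT&RUN was performed with antibodies to BMAL1 or HIF2α or with IgG. CUT&RUN releases the DNA around an antibody by a tethered nuclease, and a peak is a stretch where released fragments pile up above a background. Per the labels the 20 libraries fall into 6 groups of shRNA and antibody. The BMAL1 and HIF2α groups have 4 libraries and 1 attached peak list each, and the IgG groups have 2 libraries. The study calls its CUT&RUN replicates biological in its methods and technical in its reporting summary. Neither gives 4 for BMAL1 or HIF2α. Separate lists for replicates and for IgG were not analysed here, so the spread between replicates is unknown and none of the differences between lists below was tested. Intervals are 95% intervals that cover counting error only.

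The lists differed in depth. The median pileup at a summit, the highest point of a peak, was 6 fragments with shCNT and 5 with shBMAL1 in the BMAL1 lists, and 8 and 5 in the HIF2α lists. The genome-wide background was 0.168 and 0.0839 fragments in the BMAL1 lists and 0.209 and 0.109 in the HIF2α lists, in the same order. A pileup divided by this background is called depth-scaled below. Peak lists carry no RNA levels, so the identity of the cells could not be checked against marker genes. At BMAL1, the targeted gene, the shCNT BMAL1 list held 14 peaks and all 14 summits lay on exons of the gene, against 1 peak and no exonic summit in the shBMAL1 BMAL1 list. What produced peaks on exons was not tested.

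BMAL1 pairs with CLOCK on the E-box CACGTG and drives a set of genes whose products feed back on the clock or carry its rhythm to other genes. REV-ERBα (NR1D1) and REV-ERBβ (NR1D2) repress, and RORα (RORA) activates, through the ROR element TAGGTCA, and BMAL1 itself is one of their targets. DEC1 (BHLHE40) and DEC2 (BHLHE41) compete with BMAL1 and CLOCK for the E-box, CIART (CHRONO) represses the pair directly, and the PAR-bZIP activators DBP, TEF and HLF oppose the repressor NFIL3 on the D-box. HIF2α pairs with ARNT on the hypoxia element, whose core is ACGTG or GCGTG, so an E-box also contains a core of this element on each strand.

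A selection of the 17 E-boxes under the BMAL1 peaks of shCNT cells is printed first, as later paragraphs refer to them. Whether the differences between the shRNAs go with these boxes was not tested. Each is 5′ to 3′ on the strand of its gene (GRCh37) and lies in an intron or outside the gene, except the DBP box, which lies in an untranslated region. Capitals mark the E-box and, where there is a pair, a hexamer 6 or 7 bases away that differs from CACGTG at no more than 1 base.
NR1D1, intron, chr17:38255368-38255431: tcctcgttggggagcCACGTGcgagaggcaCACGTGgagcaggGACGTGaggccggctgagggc
NR1D1, upstream, chr17:38257267-38257326: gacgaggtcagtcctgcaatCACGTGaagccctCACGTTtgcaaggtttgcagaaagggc
NR1D2, intron, chr3:23987480-23987539: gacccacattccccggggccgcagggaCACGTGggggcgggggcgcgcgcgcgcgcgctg
BHLHE40, upstream, chr3:5020850-5020909: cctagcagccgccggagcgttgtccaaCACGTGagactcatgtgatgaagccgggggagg
BHLHE41, downstream, chr12:26267442-26267501: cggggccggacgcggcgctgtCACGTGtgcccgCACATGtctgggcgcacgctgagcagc
CIART, upstream, chr1:150254809-150254868: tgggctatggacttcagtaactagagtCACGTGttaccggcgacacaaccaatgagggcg
DBP, inside the gene, chr19:49137806-49137835: agcaggcgtcagCACGTGactcggccctga
TEF, intron, chr22:41777311-41777370: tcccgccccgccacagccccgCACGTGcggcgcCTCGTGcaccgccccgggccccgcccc
TEF, intron, chr22:41777720-41777779: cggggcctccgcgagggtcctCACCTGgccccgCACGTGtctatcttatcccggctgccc

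In shCNT cells, 7 of the 10 genes had a BMAL1 peak: NR1D1, NR1D2, BHLHE40, BHLHE41, CIART, DBP and TEF. Of all 20136 protein-coding genes, 12.8% had a peak in the same window of this list. With shBMAL1 the BMAL1 list had a peak at 5 of 10 genes (NR1D1, BHLHE41, CIART, DBP and TEF), against 18.6% of all genes. HIF2α peaks lay at 3 of 10 genes with shCNT (BHLHE40, DBP and NFIL3; all genes 11.4%) and at 5 of 10 with shBMAL1, where NR1D2 and BHLHE41 were added (all genes 13.6%). NFIL3 was the 1 gene with HIF2α peaks and no BMAL1 peak, DBP was the 1 gene with a peak in all 4 lists as deposited, and RORA and HLF had none in any list. The weakest of these calls ended under stricter limits. With −log10 p of at least 8, DBP had no HIF2α peak in either list. Under the same limit NR1D2 had no HIF2α peak, and CIART no BMAL1 peak, with shBMAL1.

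**Figure D1:**
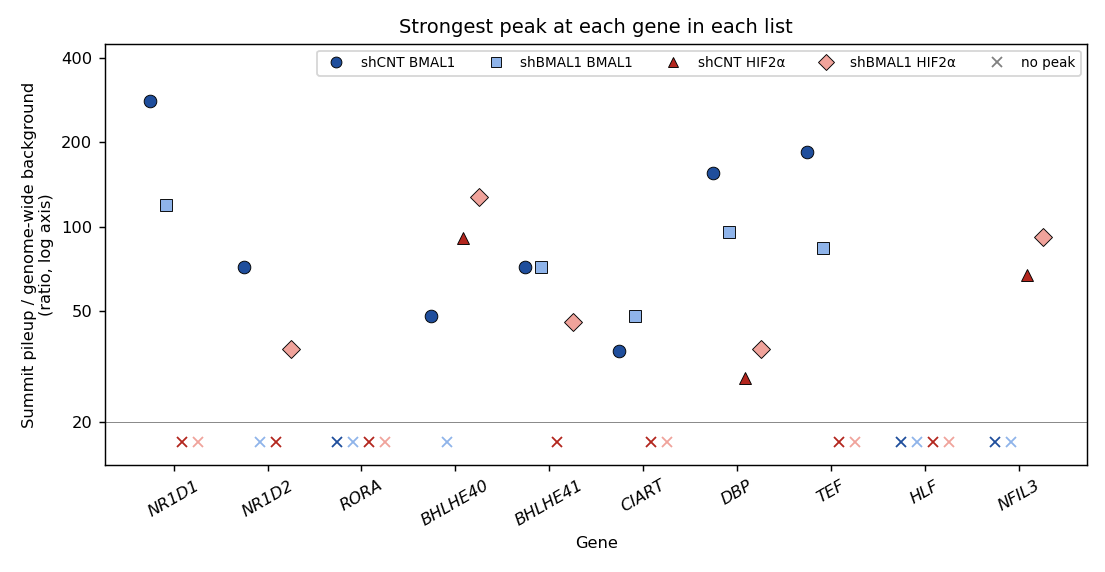
Summit pileup of the best-ranked peak at each gene, divided by the genome-wide background of its list (log axis), for the 4 lists. Crosses under the line mark genes with no peak in that list. NR1D1, TEF and DBP are highest in the shCNT BMAL1 list and lower in the shBMAL1 BMAL1 list, while BHLHE40 and NFIL3 are the highest in the HIF2α lists.

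The BMAL1 peaks at these genes stood near the top of the shCNT list and lower in the shBMAL1 list. Ranked by the deposited −log10 p, the 10 peaks of the shCNT list ran from rank 16 to rank 833 of 2350, and 6 of 10 were among the strongest 5% (5.02% of the list with ties). The 15 peaks ranked above the best of them included 13 at BMAL1 itself, and whether these exonic peaks are binding sites of the factor was not tested. Without the peaks at BMAL1, a choice made after seeing the data, the best rank was 3. The 8 peaks of the shBMAL1 list ran from rank 550 to rank 3298 of 4261, with none in the strongest 5% (5.02% of that list). The median percentile in the list was 95.9 with shCNT and 71.2 with shBMAL1. For HIF2α the peaks ran from rank 159 to 2056 of 2361 with shCNT and from 181 to 2566 of 3199 with shBMAL1, with median percentiles of 60.9 and 59.3, so the HIF2α peaks at these genes were spread over their lists under both shRNAs.

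**Figure D2:**
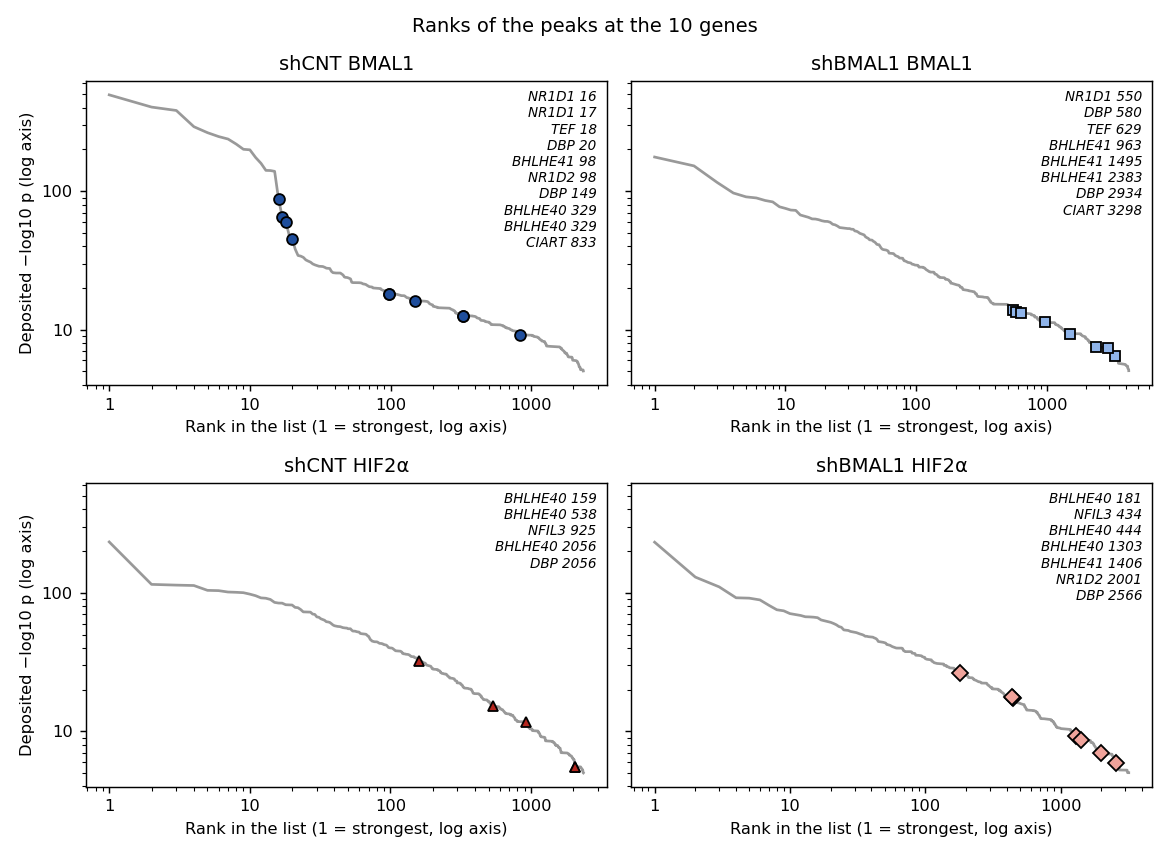
Deposited −log10 p (log axis) against rank (log axis) for every peak of each list (line), with the peaks at the 10 genes as symbols and their ranks written in each panel. In the shCNT BMAL1 list NR1D1, TEF and DBP hold ranks 16, 17, 18 and 20, and in the shBMAL1 BMAL1 list the best rank is 550.

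NR1D1 (chr17:38249046-38256842, minus strand) encodes REV-ERBα, and it had the highest BMAL1 pileups of the 10 genes. In shCNT cells 1 peak lay in an intron, with its summit 1341 bp inside the gene, a pileup of 53 and rank 17 (chr17:38255066-38255960). The second lay over the promoter, with its summit 71 bp upstream of the start, a pileup of 47 and rank 16 (chr17:38256628-38257563). With shBMAL1 only the promoter peak was called, with a pileup of 10, rank 550 and a width of 213 bp in place of 936 bp. The intronic site was not called, although a pileup of 53 corresponds to 26.5 fragments at the depth of the shBMAL1 list. This intronic peak had the higher local background, 1.33 against 0.286 fragments at the promoter, which is why its deposited fold was lower (23.2 against 37.3).

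The E-boxes of NR1D1 lay in stretches that were not called with shBMAL1. Its 2 shCNT peaks held 4 E-boxes, and none of them lay in the shBMAL1 peak. In the intron a run of 2 E-boxes and a further hexamer, GACGTG, sat 87 bp from the summit at the nearest, while the upstream E-box and its partner CACGTT sat 391 bp from the promoter summit. Within 200 bp of sequence centred on the summit, the promoter peak had no E-box under either shRNA and had the related E′ box CACGTT under both. No HIF2α peak was present in the window, and the nearest lay 13.3 kb from the gene with shCNT and 39.6 kb with shBMAL1.

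NR1D2 (chr3:23986777-24022108, plus strand), which encodes REV-ERBβ, had 1 BMAL1 peak with shCNT and none with shBMAL1. The peak (chr3:23987365-23988151) had a pileup of 12 and rank 98, and its summit, 731 bp inside the gene, was 2 bp from an E-box. The pileup corresponds to 6.00 fragments in the shBMAL1 list, where peaks of 3 fragments were called. Whether the absence of a peak goes beyond counting error was not tested. The nearest start of any gene to this summit was that of NKIRAS1, at 574 bp, so which of the genes the site belongs to cannot be told apart here. A HIF2α peak was called only with shBMAL1 (chr3:23988014-23988338, pileup 4, rank 2001), 19 bp from the NKIRAS1 start.

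The NR1D2 peak also held a D-box, the element of DBP, TEF, HLF and NFIL3, in the 200 bp around its summit. The D-box, TTATGTAA or TTACGTAA on either strand, was present in 0.809% of windows of the shCNT BMAL1 list and in 0.277% of 19845 promoter windows of the same length. It is shown in capitals on the strand of the gene.
NR1D2, intron, chr3:23987402-23987441: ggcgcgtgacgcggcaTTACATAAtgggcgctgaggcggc

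RORA (chr15:60780483-61521501, minus strand), the activator on the element that the REV-ERBs repress, had no peak in any list although its body spans 741 kb and its window holds 82 E-boxes. Of 324 protein-coding genes of at least 500 kb, 46.6% had a peak in at least 1 list. The nearest BMAL1 peaks lay 1077 kb away with shCNT and 108 kb with shBMAL1, and the nearest HIF2α peak lay 45.2 kb away under both shRNAs. A site with a pileup under about 4 fragments in the shCNT lists or 3 in the shBMAL1 lists could not have been called at this depth.

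BHLHE40 (chr3:5021122-5027008, plus strand) encodes DEC1, a repressor that is also a known hypoxia target, and it was the gene with most HIF2α peaks. At the promoter the HIF2α pileup was 19 with shCNT (rank 159, chr3:5019851-5021036) and 14 with shBMAL1 (rank 181, chr3:5020268-5021068), and BMAL1 had a pileup of 8 with shCNT (rank 329, chr3:5020276-5020955) and no peak with shBMAL1. Between 6775 and 7735 bp downstream of the start, past the end of the gene, both factors also had peaks. The HIF2α pileup there was 10 with shCNT (rank 538), and the shBMAL1 list split the stretch into peaks of 7 and 12 (ranks 1303 and 444). BMAL1 had a pileup of 8 with shCNT (rank 329) and no peak with shBMAL1.

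Both BMAL1 sites of BHLHE40 were therefore called only with shCNT, at a pileup that corresponds to 4.00 fragments in the shBMAL1 list, near the smallest pileup called there. At this depth their absence cannot be told apart from a lower number of fragments. A further HIF2α peak 15.6 kb from the start was called only with shCNT (chr3:5036652-5037307, pileup 6, rank 2056), where the depth-scaled expectation with shBMAL1 was 3.14 fragments. The nearest start to the downstream sites was that of BHLHE40-AS1, and the promoter sites lie in an intron of that gene.

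The summits at the BHLHE40 promoter lay at different places, but every peak called there held the E-box printed above. Whether the summits differ by more than the spread between replicates was not tested. With shBMAL1 the HIF2α summit was 9 bp from this E-box and 61 bp from the nearest hypoxia core outside an E-box. With shCNT the HIF2α summit lay 298 bp further upstream, beside the AP-1 site TGAGTCA. The 200 bp around the shCNT HIF2α summit held no hypoxia core. The BMAL1 summit was 17 bp from a CACGTT, which is both an E′ box and a hypoxia core, and 172 bp from the E-box. This CACGTT was also the core outside an E-box nearest the shCNT HIF2α summit, at 100 bp. Downstream, a hypoxia core outside any E-box lay 8 bp from the BMAL1 summit, 109 bp from the shCNT HIF2α summit and 64 bp from the summit of the stronger shBMAL1 HIF2α peak. The cores are shown in capitals on the strand of the gene.
BHLHE40, promoter, chr3:5020667-5020716: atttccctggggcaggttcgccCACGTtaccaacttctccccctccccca
BHLHE40, promoter, chr3:5020926-5020975: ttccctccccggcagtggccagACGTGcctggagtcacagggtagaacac
BHLHE40, downstream, chr3:5028724-5028773: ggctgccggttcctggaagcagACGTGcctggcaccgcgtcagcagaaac

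BHLHE41 (chr12:26272963-26277970, minus strand) encodes DEC2, the paralog of DEC1, and its BMAL1 site lay downstream of the gene. In shCNT cells the peak (chr12:26267107-26267654) had a pileup of 12 and rank 98, with its summit 10503 bp from the start, past the end of the gene, and 11 bp from an E-box that belongs to a pair with a gap of 6 bases. With shBMAL1 the same site was called (chr12:26267260-26267675) with a pileup of 6 and rank 963, its summit 20 bp away. The depth-scaled pileup was the same under both shRNAs, with a ratio of 1.000 (0.308 to 2.88).

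The promoter of BHLHE41 had peaks only with shBMAL1. BMAL1 peaks with pileups of 4 (rank 2383) and 5 (rank 1495) lay with their summits 480 and 1183 bp upstream of the start, and a HIF2α peak of 5 (rank 1406) overlapped the second. Neither BMAL1 peak held an E-box. An AP-1 site was present at the second, 136 bp from the start of the unnamed gene ENSG00000256894, and AP-1 sites were found in 18.3% of all windows of the shBMAL1 BMAL1 list. A pileup of 5 in this list corresponds to about 2.00 times as many fragments in the shCNT list, which called peaks from 4 fragments.

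CIART (chr1:150254953-150259505, plus strand), the repressor of BMAL1 and CLOCK, had the weakest BMAL1 peak of the 7 genes. The pileup was 6 with shCNT (rank 833, chr1:150254723-150254915) and 4 with shBMAL1 (rank 3298, chr1:150254730-150254876), with the summits 200 and 226 bp upstream of the start. After depth scaling the ratio of shBMAL1 to shCNT was 1.33 (0.277 to 5.62). The shCNT peak held 3 E-boxes in 193 bp and the shBMAL1 peak 1, and neither held a hypoxia core outside an E-box. The start of the unnamed gene ENSG00000289041 was nearer than that of CIART, at 182 bp.

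DBP (chr19:49133287-49140636, minus strand), the activator on the D-box, had 2 BMAL1 sites. At the promoter the pileup was 26 with shCNT (rank 20, chr19:49140659-49141568) and 8 with shBMAL1 (rank 580, chr19:49140755-49141040), with the summits 249 and 264 bp upstream of the start. The depth-scaled ratio was 0.615 (0.241 to 1.40). Inside the gene, 41 bp from an alternative start of DBP, the pileup was 10 with shCNT (rank 149, chr19:49137768-49138016) and 4 with shBMAL1 (rank 2934, chr19:49137957-49138133). The ratio there was 0.800 (0.183 to 2.77), but these peaks shared only 60 bp and their summits were 158 bp apart, and of the 2 E-boxes of the shCNT peak 1 lay outside the shBMAL1 peak and 1 straddled its edge.

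The sites of DBP differed in sequence. The internal summit was 3 bp from the E-box printed above, while the promoter peak of 910 bp held no E-box. The promoter peak held 5 hypoxia cores and a ROR element, which was found in 1.45% of windows of the shCNT BMAL1 list and 0.685% of promoter windows. HIF2α peaks lay over the same promoter with a pileup of 6 with shCNT (rank 2056) and 4 with shBMAL1 (rank 2566), both among the weakest of their lists. The ROR element and the hypoxia core nearest the HIF2α summits are in capitals.
DBP, upstream, chr19:49140953-49140992: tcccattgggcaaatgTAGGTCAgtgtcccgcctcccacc
DBP, upstream, chr19:49140795-49140844: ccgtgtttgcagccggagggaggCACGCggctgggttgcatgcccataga

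TEF (chr22:41763337-41795330, plus strand), a second D-box activator, had 1 BMAL1 site, in an intron of the longest transcript and around the start of the shorter one. The pileup was 31 with shCNT (rank 18, chr22:41776580-41778151) and 7 with shBMAL1 (rank 629, chr22:41776657-41777784), and the depth-scaled ratio was 0.451 (0.168 to 1.05). The summits lay 159 and 553 bp upstream of the start and thus 394 bp apart. Each was near another E-box pair of the 2 printed above, 37 bp from one with shCNT and 52 bp from the other with shBMAL1. All 3 E-boxes of the shCNT peak also lay in the shBMAL1 peak. The nearest HIF2α peaks were 314 kb from the gene with shCNT and 268 kb with shBMAL1.

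HLF (chr17:53342321-53402548, plus strand), the third PAR-bZIP activator, had no peak in any list and 13 E-boxes in its window. The nearest BMAL1 peak lay 26.2 kb away under both shRNAs, and the nearest HIF2α peaks 840 kb and 1591 kb away.

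NFIL3 (chr9:94171327-94186114, minus strand), which represses through the D-box, had HIF2α peaks and no BMAL1 peak. The HIF2α pileup was 14 with shCNT (rank 925, chr9:94184770-94185760) and 10 with shBMAL1 (rank 434, chr9:94185032-94185808), with the summits 424 and 373 bp inside the gene, in an intron. The depth-scaled ratio was 1.36 (0.542 to 3.30). The lower rank with shCNT went with a local background of 1.16 fragments, against 0.125 with shBMAL1. The nearest BMAL1 peaks were 215 and 216 kb away. Both HIF2α peaks held a hypoxia core, 7 bp from the shCNT summit, and a D-box, which was present in 0.593% of windows of the shCNT HIF2α list and 0.750% of the shBMAL1 HIF2α list. Core and D-box are in capitals.
NFIL3, intron, chr9:94185659-94185708: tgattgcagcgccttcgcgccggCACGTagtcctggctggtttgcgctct
NFIL3, intron, chr9:94185743-94185782: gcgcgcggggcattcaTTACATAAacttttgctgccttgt

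**Figure D3:**
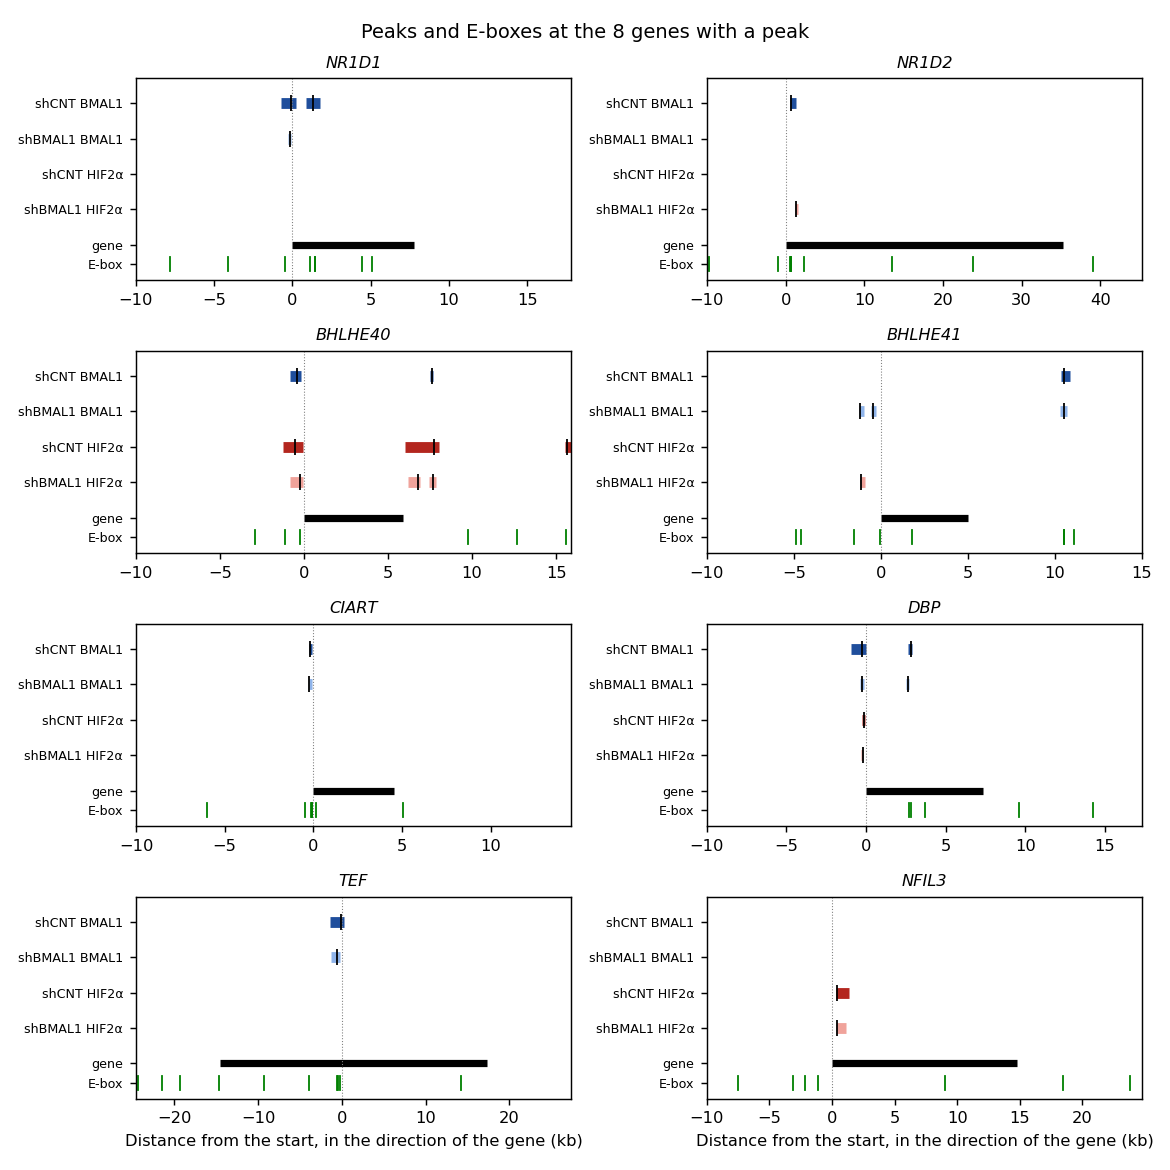
Peaks (bars) and their summits (black ticks) in the 4 lists at the 8 genes with a peak, against distance from the start of the gene in kb, in the direction of transcription; black bars are gene bodies and green ticks are E-boxes. Most BMAL1 peaks lie within 1 kb of the start, and the BHLHE41 site called under both shRNAs and the downstream BHLHE40 site lie past the end of the gene.

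Over the 10 genes, BMAL1 summits were mostly near starts, and most E-boxes near a start lay in a shCNT BMAL1 peak. Summits lay within 1 kb of a start of the gene for 7 of 10 BMAL1 peaks with shCNT and 6 of 8 with shBMAL1. The same share over the whole lists was not worked out, so this position cannot be called particular to these genes. The windows held 155 E-boxes in all, of which 17 lay in shCNT BMAL1 peaks. Within 1 kb of a start of one of the genes, 12 of 20 E-boxes lay in a shCNT BMAL1 peak, against 2.29% of the 9274 E-boxes within 1 kb of any protein-coding start. The shBMAL1 BMAL1 peaks held 6 of the 17 whole, at BHLHE41, CIART and TEF, and over the whole list 23.5% of E-boxes in shCNT peaks were also in a shBMAL1 peak.

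An E-box stood within the 200 bp around the summit of 6 of 10 shCNT BMAL1 peaks (60%, Wilson interval 31.3 to 83.2%), against 11.1% of the list. For shBMAL1 BMAL1 peaks it was 3 of 8 (4.39% of the list), for shCNT HIF2α 1 of 5 (6.4%) and for shBMAL1 HIF2α 1 of 7 (6%), and 5.66% of promoter windows held one. Pairs with a gap of 6 or 7 bases were within this window at 2 of 10 shCNT BMAL1 peaks, BHLHE41 and TEF, against 0.511% of the list and 0.111% of promoter windows. Hypoxia cores outside an E-box were common in all windows. They were found at 7 of 10 shCNT BMAL1 peaks (42.5% of the list), 5 of 8 shBMAL1 BMAL1 peaks (36%), 2 of 5 shCNT HIF2α peaks (63.7%) and 7 of 7 shBMAL1 HIF2α peaks (57.1%), and in 40.4% of promoter windows. These matches describe the sequence and do not show which factor bound it.

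BMAL1 sites were shared between the shRNAs at 6 of 10 shCNT peaks (60%, Wilson interval 31.3 to 83.2%), against 47.1% of the list. Of the shBMAL1 BMAL1 peaks, 6 of 8 overlapped a shCNT peak (26.1% of the list). HIF2α peaks were shared at 4 of 5 with shCNT (55.8% of the list) and at 5 of 7 with shBMAL1 (41.2%). BMAL1 peaks coincided with HIF2α peaks at 3 of 10 with shCNT, both BHLHE40 sites and the DBP promoter, against 25% of the list, and at 2 of 8 with shBMAL1, the DBP and BHLHE41 promoters (21.2%). These shares of coincident peaks were near those of the lists.

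The retained BMAL1 sites were lower with shBMAL1, and whether they were lower after depth scaling differed from site to site. The unscaled pileup fell at 6 of 6 sites, to between 0.213 and 0.667 of its shCNT value (44.6% of 1112 shared pairs were lower). After depth scaling it was lower at the NR1D1 and TEF sites and both DBP sites, level at BHLHE41 and higher at CIART, with a median ratio of 0.707. Over all shared pairs 7.28% had a ratio under 1 and the median was 2.00. This median is the depth factor itself, since the median unscaled ratio was 1. The lowest ratio was that of the NR1D1 promoter, 0.425 (0.192 to 0.853), the 1 site whose interval lay below 1. The 10th and 90th percentiles of the shared pairs were 1.14 and 3.60, and 5 of the 6 sites lay below this range, with CIART inside it. A pair of low shCNT pileup could not fall far and still be called, as the shBMAL1 list starts at 3 fragments. The range is thus not a like measure for sites of higher shCNT pileup.

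These strong sites have few equals in the list. Only 11 shared BMAL1 pairs had a shCNT pileup of at least 20, a limit chosen after the values were seen, and 3 of the 11 were NR1D1, TEF and DBP. The median depth-scaled ratio of the 11 was 0.785 and 72.7% were below 1. This limit is set on the denominator of the ratio, which by itself favours low ratios, and the part of peak height in the ratios of the clock genes was not tested. The other sites, BHLHE41, the internal DBP site and CIART, had shCNT pileups of 12, 10 and 6 and ratios of 1.000, 0.800 and 1.33. These ratios also lay below the median of all shared pairs, which equals the depth factor.

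HIF2α at the shared sites was higher with shBMAL1 on the depth-scaled values, as at most shared pairs, and mostly lower on the unscaled ones. The depth-scaled ratio was above 1 at all 5 pairs, from 1.27 to 2.29 with a median of 1.36, against a median of 1.53 over 1331 shared pairs (12.2% below 1). The 5 pairs came from 4 shCNT peaks and are not separate sites. The downstream BHLHE40 peak of pileup 10 was paired with both shBMAL1 peaks there, at ratios of 1.34 and 2.29. The summits of the first of these pairs were 960 bp apart. The unscaled pileup was lower at 4 of 5 pairs (68.4% of shared pairs). At the BHLHE40 promoter the scaled ratio was 1.41 (0.652 to 2.96), and the interval of each of the 5 pairs included 1.

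**Figure D4:**
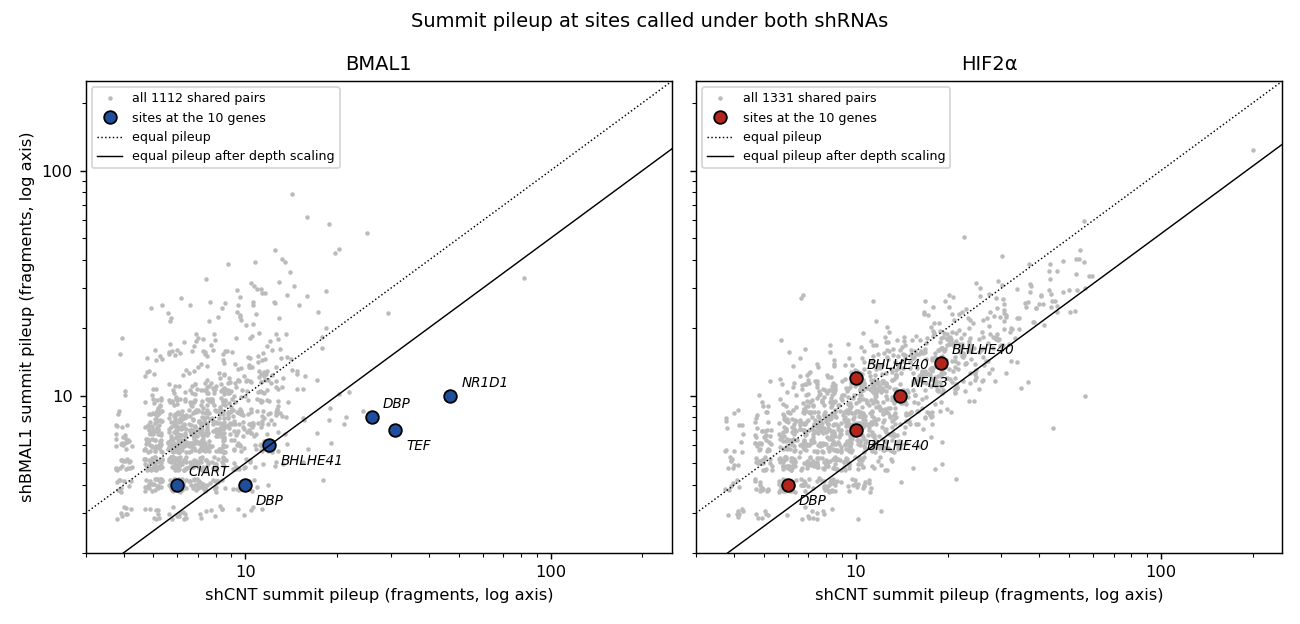
Summit pileup in fragments with shBMAL1 against shCNT (log axes) at sites called under both shRNAs, for BMAL1 (left) and HIF2α (right). Grey points are all shared pairs, slightly jittered, and coloured points the sites at the 10 genes. The solid line marks equal depth-scaled pileups: NR1D1, TEF and both DBP sites lie below it for BMAL1, and the 5 HIF2α pairs lie above it. These 5 pairs come from 4 shCNT peaks.

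Among 18 other clock genes with an annotated protein-coding record, 8 had a BMAL1 peak in the same window with shCNT and 7 with shBMAL1, and 3 and 6 had a HIF2α peak. Over all protein-coding genes the shares were 12.8% and 18.6% for BMAL1 and 11.4% and 13.6% for HIF2α, in the same order. The 8 with shCNT were PER1, PER2, PER3, CRY1, CRY2, TIMELESS, CSNK1D and BMAL1, the last with the exonic peaks described above. Without BMAL1 the BMAL1 counts were 7 and 6 of 17 genes.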

How the data were processed

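The groups of CUT&RUN libraries follow the labels, which name an shRNA and an antibody for each. Per the submitters' processing notes and the methods of the study, the authors aligned reads to hg19 (GRCh37) and sacCer3 with Bowtie2 2.5.3, called peaks with MACS2 2.2.9.1 (p limit 1e-05, maximum gap 400 bp) and removed blacklisted regions with bedtools 2.31.1. Pooling of replicates and the control used for each list are not given in the sources used here. The deposited fold is a linear ratio of summit pileup to local background, each with a pseudocount of 1 added. The deposited p-value is given as −log10. The q-value column was not used.

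The whole-number pileup and background behind each peak were solved from the fold and p-value, which gave a whole pileup for 100% of peaks within 0.001, and the solver was tested on simulated data. Depth scaling divided the pileup by the smallest background of the list. It assumes that this background tracks sequencing depth. Yeast DNA, which the study added to each sample for normalization, was not used here. Genes, starts and parts of genes came from GENCODE release 44 on GRCh37, and sequences from the GRCh37 primary assembly. Motifs were searched on both strands: E-box CACGTG, E′ box CACGTT, hypoxia core ACGTG or GCGTG, D-box TTATGTAA or TTACGTAA, ROR element TAGGTCA, and AP-1 TGACTCA. An overlap of 1 bp or more made peaks shared. Shares have Wilson 95% intervals, and ratios of pileups have exact binomial intervals of counts. All 10 genes were named whatever their values. The genes and the list of 19 other clock genes, of which 18 were found as protein-coding, were chosen with earlier results of these data known. Computations ran in Python 3.11.15 with pysam 0.24.0, pandas 2.3.3 and scipy 1.17.1.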

Additional observations from a re-analysis of the deposited data

Results flagged for a closer look

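At the DBP promoter the depth-scaled pileup moved in opposite directions for the antibodies. The ratio of shBMAL1 to shCNT was 0.615 for BMAL1 (pileups 26 and 8) and 1.27 for HIF2α (pileups 6 and 4). It is given here because the values lie on different sides of 1. DBP was the 1 gene whose site was called in all 4 lists, and the median ratio over all shared pairs was 2.00 for BMAL1 and 1.53 for HIF2α, so the HIF2α value was close to its list. The difference was not tested, and the intervals of both ratios (0.241 to 1.40 and 0.264 to 5.37) overlap. Unscaled, both pileups were lower with shBMAL1.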

How the results depend on the processing

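Of 62 values under an alternative, 8 moved beyond the limits set (1.5 times for counts, the Wilson interval for shares). With 5 to 10 peaks the Wilson intervals are wide, so the other 54 say little about stability. The share of shCNT BMAL1 peaks retained with shBMAL1 was 60% as reported and 40% with a −log10 p of at least 8, with lists of equal length or with a pileup of at least 5. Under each of these 3 settings CIART lost its shBMAL1 BMAL1 peak and DBP its shBMAL1 HIF2α peak, and DBP lost its shCNT HIF2α peak under the first. With windows of 50 kb to either side, 5 genes had a HIF2α peak with shCNT and 8 with shBMAL1. A stricter limit of 8 on −log10 p, and a pileup of at least 5, each left 3 genes with a HIF2α peak with shBMAL1. These were BHLHE40, BHLHE41 and NFIL3, so the HIF2α peak at NR1D2 was lost under both. The share of shBMAL1 BMAL1 peaks with any hypoxia core, those inside an E-box included, was 75% as reported and 100% with 400 bp windows or with the stricter limit. The median BMAL1 ratio of 0.707 became 0.354 without scaling and 0.424 with the deposited fold. The first change is the depth factor of 2.00 taken out, so that value had to stay below 1 and is no separate check. The fold adds 1 to pileup and background, so at backgrounds well below 1 it hardly corrects for depth either. No paired analysis was possible because the files used here hold 1 peak list for each group, and for the same reason no replicate could be left out. Data of the single libraries were not analysed here. Depth limits the BMAL1 sites of low pileup, such as CIART with 6 and 4 fragments: the counting interval of the ratio at CIART ran from 0.277 to 5.62.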
